A study of Rattus norvegicus with 113 samples.

Results

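The 7 genes described here are the neurotrophin and related trophic genes Bdnf, Ntf3, Gdnf and Vgf and the receptor genes Ntrk2, Ntrk3 and Ngfr. They were chosen by name, through the RefSeq symbol of the transcript that each array probe was designed to, and they are 7 of 16691 genes named in this way. Their levels were measured on 113 one-colour Agilent arrays of adult male Sprague-Dawley rats, 1 array per tissue sample, in whole hippocampus and in a small piece of cortex taken near the injury site. TBI, sham and naive rats were compared. TBI rats received a fluid-percussion pulse to the brain once isoflurane had been stopped and the paw withdrawal reflex was back, which the sample labels call moderate and the study's methods call severe. Sham rats were anesthetized and operated on alike but were not injured. Naive rats had neither anesthesia nor handling. Tissue was taken 24 hr, 2 wk, 3 mo, 6 mo and 12 mo after surgery. Of the 29 groups, 27 held 4 arrays, the sham hippocampus at 24 hr held 2, the TBI hippocampus at 24 hr held 3, and there was no naive hippocampus at 24 hr. The methods describe each sample as the tissue of 1 rat, which the labels do not state, so the p-values measure the spread between these samples.

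Neurotrophins are small secreted proteins that keep neurons alive, guide the growth of their processes and adjust the strength of synapses. Each is made as a longer precursor, and the mature form acts through a Trk receptor tyrosine kinase while the precursor acts mainly through p75, the product of Ngfr, together with sortilin. In the adult forebrain Bdnf and its receptor TrkB, encoded by Ntrk2, are known for activity-dependent transcription and for synaptic plasticity, neurotrophin-3, encoded by Ntf3, binds mainly TrkC, encoded by Ntrk3, and Vgf is a neuropeptide precursor of dense-core vesicles that Bdnf induces. Gdnf belongs to another family and acts through GFR alpha co-receptors and Ret.

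Every level below is a log2 value over the median probe of its own array, so 1 unit is a doubling, and a value near 0 is a probe of middling brightness. Levels of different probes cannot be set against each other. A probe entered a comparison if all arrays of either group read it well above background, and a difference passed the test where limma's p-value, adjusted over all probes tested in that comparison, was under 0.05. The 2 array designs, a larger one with 45598 probes on 96 arrays and a smaller one with 30367 probes on the 17 hippocampus arrays of 24 hr and 3 mo, were analysed apart. The members had 15 probes on the larger design and 10 on the smaller, and each gene is described by its brightest probe unless another is named. For Gdnf, Ntrk2 and Ntrk3 the brightest probe was not the same on the 2 designs. In tissue pieces, fewer cells of a type and less RNA per cell cannot be told apart.

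Between 41.21% and 60.94% of probes were well above background on 110 of the arrays. The other 3 stood apart, with 93.0% in sham cortex at 2 wk replicate 3, 72.41% in naive hippocampus at 6 mo replicate 2 and 65.17% in naive cortex at 2 wk replicate 4. The first of these correlated with its own group at only 0.7506, against at least 0.9635 in all other groups. Each group lay on 1 slide. TBI and sham shared a slide in 5 of 10 comparisons, sham and naive in 4 of 9, and TBI and naive in 0 of 9. The hippocampus groups of 24 hr differed in both slide and scan day. Where compared groups lay on different slides, slide and group cannot be told apart. The tissue labels were checked against marker genes. Of 7 hippocampal markers tested in naive rats, 5 were higher in hippocampus and 0 lower, and of 9 cortical markers, 4 were higher in cortex and 2 in hippocampus.

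RefSeq on the GRCr8 build gave transcription starts for 4 members, with 6 promoters for Bdnf, 3 for Ntf3, 1 for Gdnf and 1 for Vgf. The 250 bases before a start are shown for the 3 promoters that held the cyclic AMP response element TGACGTCA or its shorter form TGACG on either strand, the letters through which activity-dependent CREB is known to act on Bdnf and Vgf. Capitals mark these letters (read on the opposite strand as CGTCA) and, in Vgf, also an E-box CACGTG. The Vgf window is chr12:25277021-25277270 on the minus strand, the Bdnf window is chr3:116637608-116637857 on the plus strand before the fourth start by position, and the Gdnf window is chr2:58621077-58621326 on the plus strand.
Vgf: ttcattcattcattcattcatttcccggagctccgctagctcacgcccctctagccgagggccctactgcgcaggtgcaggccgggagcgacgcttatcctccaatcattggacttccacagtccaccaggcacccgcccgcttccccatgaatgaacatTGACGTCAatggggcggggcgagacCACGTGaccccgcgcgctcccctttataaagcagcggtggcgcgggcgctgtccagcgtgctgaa
Bdnf: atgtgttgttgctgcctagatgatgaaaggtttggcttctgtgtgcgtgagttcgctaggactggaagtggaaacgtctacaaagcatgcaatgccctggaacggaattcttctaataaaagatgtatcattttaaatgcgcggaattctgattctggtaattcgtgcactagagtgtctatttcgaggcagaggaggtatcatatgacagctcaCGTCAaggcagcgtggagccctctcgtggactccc
Gdnf: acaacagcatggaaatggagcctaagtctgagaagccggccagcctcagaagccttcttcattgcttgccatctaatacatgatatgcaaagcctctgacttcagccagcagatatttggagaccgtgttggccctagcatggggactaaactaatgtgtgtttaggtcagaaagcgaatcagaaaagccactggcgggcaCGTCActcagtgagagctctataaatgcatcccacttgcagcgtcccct
Counted from the transcription start, the full Vgf element begins at −90 and the E-box at −65. Of 33469 promoters with 250 bases before and 50 after the start, 1.83% held the full element, 21.2% the shorter form and 6.42% the E-box, both strands counted, and the shorter form also lies inside every full element. The AP-1 letters TGANTCA, in 7.33% of promoters, occurred at −152 from the third Bdnf start, another E-box lay at 20 from the second Bdnf start, and none of the letters searched, including the Egr motif GCGGGGGCG of 2.73% of promoters, was in the Ntf3 promoters.

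In uninjured rats, the widest gap of any member between tissues was that of Ntf3. In naive hippocampus it measured 4.33, 4.18, 3.52 and 3.51 at 2 wk, 3.997, 3.50, 3.85 and 3.64 at 6 mo, and 3.98, 3.86, 3.96 and 3.91 at 12 mo. In naive cortex it measured 0.08, 1.11, −0.27 and 0.47 at 2 wk, 0.67, 0.72, 0.21 and 0.67 at 6 mo, and 0.86, 0.43, 0.55 and 0.79 at 12 mo. All 12 hippocampal arrays lay above all 12 cortical arrays. Averaged over the 3 intervals the difference was 3.33 (SE 0.15, adjusted p = 3.96e-17), a 10.1-fold higher level in hippocampus, which ranked 10 by p-value among the 24602 probes tested. It was 3.54, 3.18 and 3.27 at 2 wk, 6 mo and 12 mo, and it passed at every interval, also with any 1 array left out.

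Bdnf was higher in hippocampus too, by a smaller step. The 12 naive hippocampal arrays ran from 2.39 through a median of 3.16 to 3.33, and the 12 naive cortical arrays from 0.30 through 1.97 to 2.53. The lowest hippocampal array, one of the arrays that stood apart, lay inside the cortical range, and the other 11 lay above it. The average difference was 1.13 (SE 0.17, adjusted p = 6.02e-06), or 2.18-fold. By interval it was 1.68 at 2 wk (adjusted p = 0.000181), 0.78 at 6 mo (adjusted p = 0.0802) and 0.92 at 12 mo (adjusted p = 0.0409), and the last no longer passed with any 1 of its 8 arrays left out. The 2 wk value includes the lowest cortical array (0.30), which also stood apart.

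Vgf ran the other way, from 5.45 through 7.005 to 7.36 in naive hippocampus and from 6.14 through 7.48 to 7.94 in naive cortex, with ranges that overlapped. Its average difference was −0.57 (SE 0.17, adjusted p = 0.0128), and its other probe gave −0.96 and passed as well. The Vgf difference was widest at 6 mo (−1.24, adjusted p = 0.00321), while at 2 wk it was 0.05. The 6 mo value includes the hippocampal array at 5.45 and the 2 wk value the cortical array at 6.14, both of which stood apart. The other cortical arrays of 2 wk read 7.39 to 7.51, above the hippocampal arrays of 2 wk, which reached 7.35. Of the receptors, Ntrk3 was higher in hippocampus by 0.70 (SE 0.16, adjusted p = 0.00135), with other probes at 0.84 and 0.65, and it passed at 2 wk (1.06, adjusted p = 0.0114) but not at 6 mo (0.40) or 12 mo (0.63). The 2 wk value includes cortex replicate 4, which stood apart and read 4.41. The median over all probes at 2 wk was itself 0.44. Ntrk2 differed by 0.41 (SE 0.17, adjusted p = 0.0636), and its other bright probes gave −0.15, 0.39 and −0.37, so probes of the same gene pointed in opposite directions. Without the 3 arrays that stood apart the Ntrk2 difference was 0.33 with adjusted p = 0.0009. Ngfr, at 0.20 (adjusted p = 0.378), overlapped widely between tissues.

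Thus 4 of the 6 members tested passed the average tissue comparison, in which 31% of all probes passed, against 13.2% at 2 wk, 14.1% at 6 mo and 9.38% at 12 mo. The naive arrays of the tissues never shared a slide or a scan day, so the tissue difference and the slide cannot be told apart. By the methods both tissues came from the same brains, which the labels do not tie to arrays, and with same-numbered arrays as a block the same member tests passed. The median over all probes was itself above 0, at 0.16. Markers of other cells also moved with tissue. Of 6 choroid plexus markers 4 were higher in hippocampus (median 2.61), of 10 oligodendrocyte markers 9 were higher (median 0.64), and of 8 meningeal markers 6 were lower (median −1.81). Choroid plexus markers summed to between 7.306 and 13.07 on the log2 scale in the naive hippocampus arrays and between 6.237 and 7.87 in the naive cortex arrays, and the part of these cells in the member differences was not tested.

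**Figure D1:**
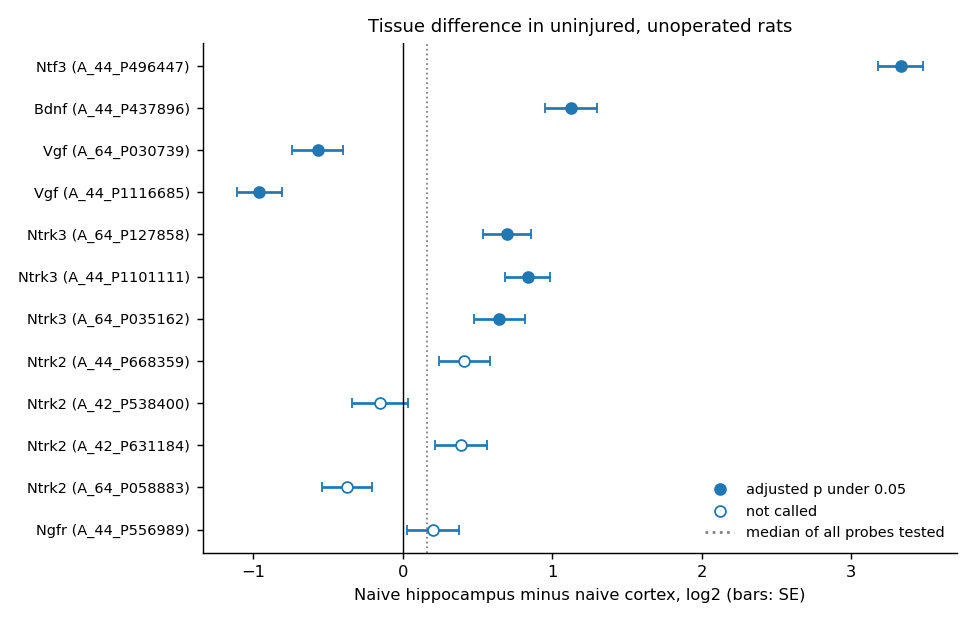
Average difference between naive hippocampus and naive cortex (log2, bars of 1 SE) for every tested probe of the members, with filled points where the adjusted p was under 0.05, open points where it was not, and a dotted line at the median of all probes tested (0.16). Ntf3 sits at 3.33 and Bdnf at 1.13, the 2 Vgf probes lie below 0 and the probes of Ntrk2 on both sides of it.

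The wider pathway was read from 9 lists of genes. The list counts did not leave out the members, so a list that holds members repeats their results. In the same tissue comparison, 6 of 13 neurotrophin ligand and receptor genes were higher in hippocampus and 2 lower (median 0.41, against 0.18 over all genes). Over all 24602 probes 5046 were higher in hippocampus and 2583 lower, or 7276 and 6425 after scaling on the 75th percentile. Of the activity-regulated genes 5 of 36 were higher and 18 lower (median −0.48), and of the dense-core vesicle proteins 3 of 22 were higher and 7 lower (median −0.08). The GDNF family gave 4 higher and 2 lower of 10, the proteases and inhibitors that process proneurotrophins and Vgf 4 and 1 of 13, Trk signaling genes 4 and 4 of 46, p75 signaling genes 5 and 5 of 26, other growth factors 4 and 3 of 24, and regulators of Trk and p75 3 and 1 of 14.

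No member passed the comparison of TBI with sham. The tests numbered 57 over 10 comparisons of tissue and interval, since Bdnf, Vgf, Ntrk2 and Ntrk3 could be tested in 10, Ntf3 in 9, Ngfr in 7 and Gdnf in 1. The lowest adjusted p was 0.107, and 7 tests had an unadjusted p under 0.05. Over all probes 1.31% of the 225006 tests passed. At the thresholds of the study's methods, a fold of 1.4 with an unadjusted p under 0.05, 6 of the 57 passed, beside 5.67% of all tests. Those 6 and the other test under 0.05 are given with their values below, ordered by the roles of the genes. The 6 include Gdnf and Ntf3 in cortex at 24 hr, both tested through the TBI arrays alone. Averaged over the intervals of the larger design, no member passed between TBI and sham in either tissue (adjusted p of at least 0.484), and no member passed the test of the difference of its TBI effect between tissues or from 24 hr on its brightest probe.

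**Figure D2:**
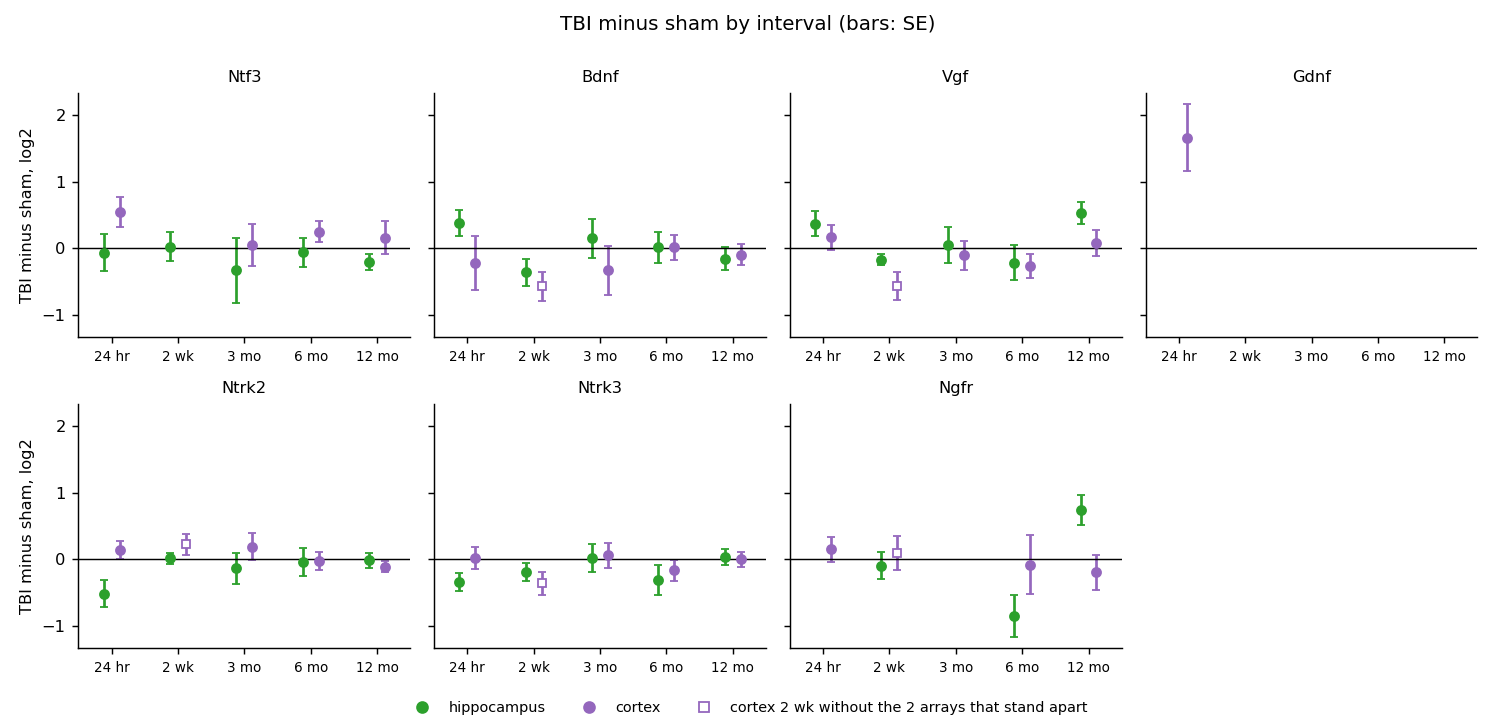
TBI minus sham (log2, bars of 1 SE) at each interval for the brightest probe of each member on the design used, in hippocampus and cortex, where it was tested. Open squares give cortex at 2 wk without the 2 cortex arrays that stood apart; most points lie within 0.5 of 0, and the highest point drawn is Gdnf in cortex at 24 hr (1.66, against sham readings not well above background), while Ntrk2 in cortex at 2 wk with all arrays (1.68) is not drawn.

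Among the ligands, Gdnf, a survival factor for dopaminergic and motor neurons, was above background on all arrays of a single group. In cortex at 24 hr the 4 TBI arrays read −0.53, 0.36, −0.95 and −1.07, all well above background. The sham arrays read −1.92, −3.16, −1.13 and −2.60 and the naive arrays −2.54, −3.31, −3.31 and −1.41, and none of these 8 was well above background. TBI cortex at 24 hr was the only 1 of the 24 groups on the larger design with Gdnf above background on every array, and over the design the probe was above background on 11 of 96 arrays. Gdnf thus entered these comparisons through the TBI arrays alone, and its differences are given as bounds. The p-values beside them come from limma fits to sham and naive readings not well above background, so they are no support for a rise. TBI shared no slide with sham or naive here, so slide and group cannot be told apart. The TBI level was at least 1.27-fold that of sham (adjusted p = 0.107) and at least 1.57-fold that of naive (adjusted p = 0.0188, or 0.0357 with no filter on dim probes and 0.0595 with normexp). These bounds set the mean of the TBI arrays against the mean, over arrays of the other group, of the dimmest level counted as above background or the probe's own reading where that was higher. With 1 array left out, the difference from naive passed in 5 of 8 cases (adjusted p from 0.0158 to 0.0563), and was lost without naive replicate 2 or 3 or TBI replicate 1. A second Gdnf probe was above background on 3 of 96 arrays and could not be read. In hippocampus the brighter probe was above background on 2 of 36 arrays of the larger design, so no level of Gdnf can be given there.

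Bdnf passed no adjusted test between TBI, sham and naive. In hippocampus at 24 hr it read 1.59 and 1.102 in sham and 1.86, 1.52 and 1.79 in TBI, with ranges that overlapped by 1 array, and the difference was 0.38 (SE 0.20, adjusted p = 0.254). At 2 wk the difference was −0.36, at 3 mo 0.15, at 6 mo 0.01 and at 12 mo −0.16. On the larger design all hippocampal Bdnf arrays, injured or not, lay between 2.39 and 3.62, and the group means ran only from 2.83 in naive rats at 12 mo to 3.36 in sham rats at 2 wk. Neighbours in that order differed by less than 1 SD within groups. In cortex at 24 hr Bdnf read 0.64, 2.50, 1.19 and 1.399 in TBI, 2.28, 1.19, 1.38 and 1.75 in sham and 0.89, 0.94, 2.06 and 2.04 in naive, so the 3 groups lay over each other. Cortical group means ran from 1.33 in TBI rats at 3 mo to 2.31 in sham rats at 12 mo, apart from sham at 2 wk, whose mean of 0.36 was set by the array that stood apart.

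That array turned the direction of several members in cortex at 2 wk. There Bdnf read 1.77, 2.31, −4.67 and 2.03 in sham against 1.23, 1.16, 1.89 and 1.58 in TBI. With all arrays the TBI difference was 1.11, and without the 2 cortex arrays that stood apart it was −0.57 (SE 0.21, adjusted p = 0.182). Vgf changed in the same way from 0.87 to −0.56 (SE 0.21, adjusted p = 0.172) and Ntrk3 from 0.95 to −0.36 (adjusted p = 0.304), while Ntrk2 went from 1.68 to 0.23. None passed in either form. The remaining 3 sham arrays of Vgf read 7.53, 7.54 and 7.76, all above the TBI arrays at 6.61, 6.73, 7.44 and 7.40.

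**Figure D3:**
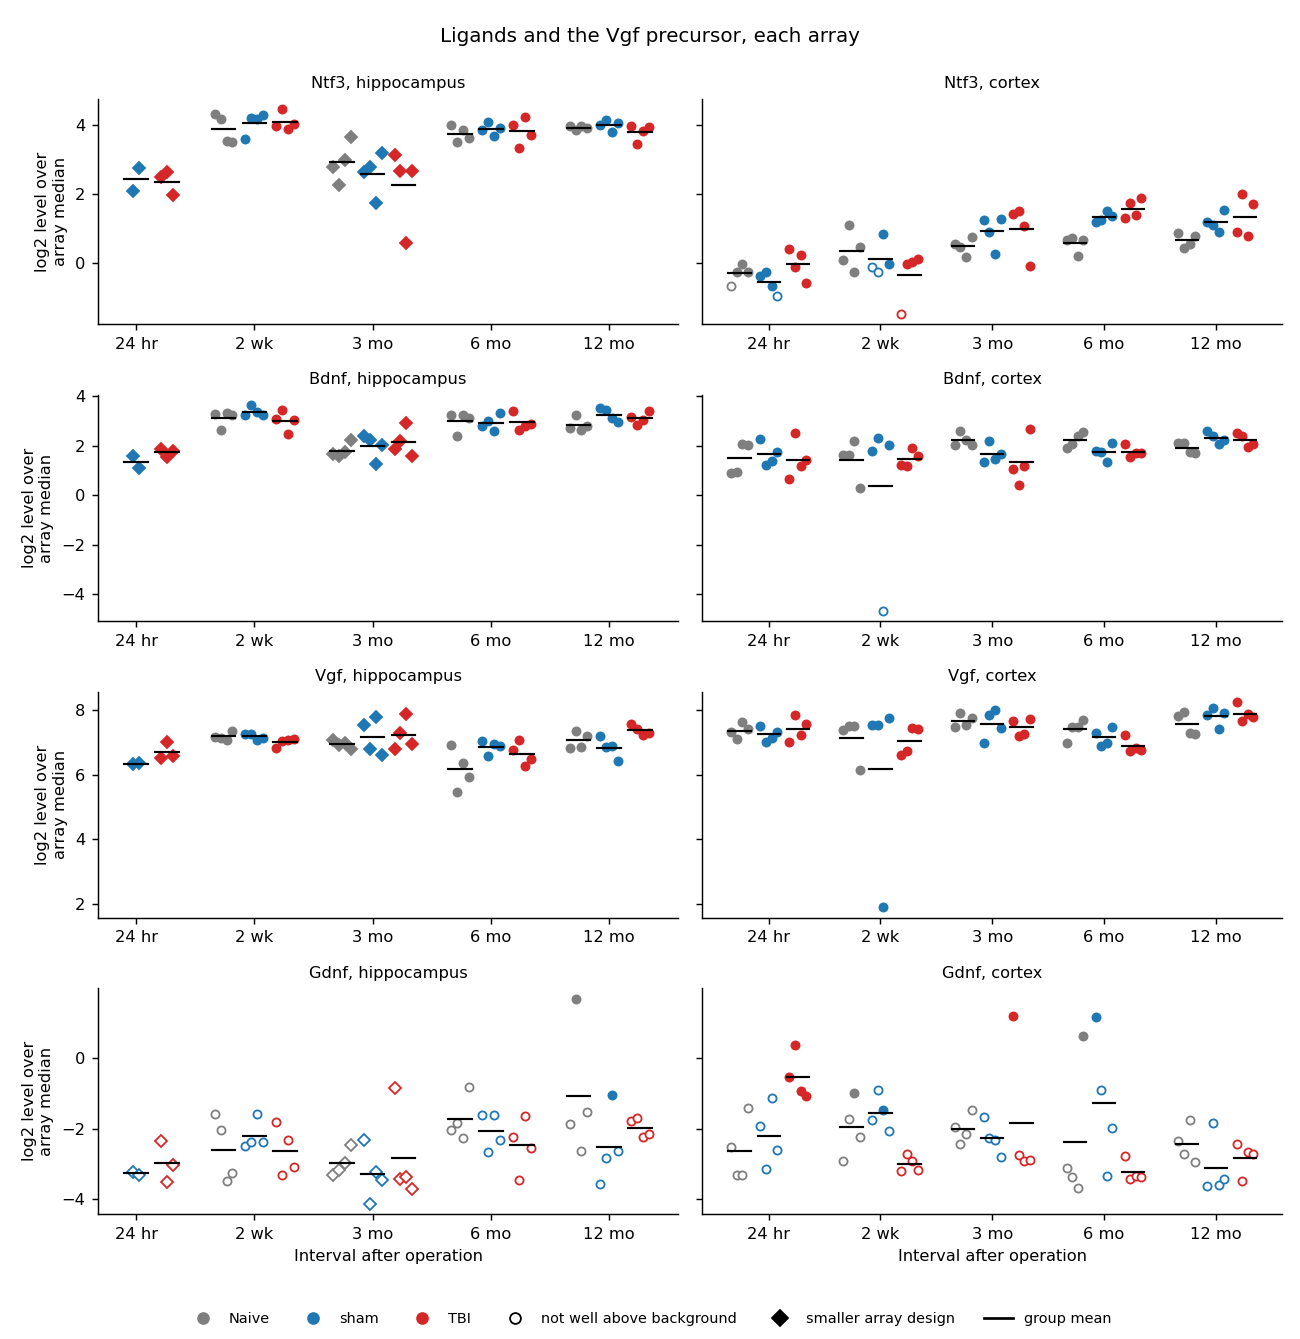
Levels (log2 over the array median) of Ntf3, Bdnf, Vgf and Gdnf on every array, by tissue and interval, for naive, sham and TBI rats; bars are group means, open markers are arrays not well above background, and diamonds are arrays of the smaller design. On the larger design the Ntf3 arrays of hippocampus (from 3.34) all lie above those of cortex (up to 1.99), and Gdnf is filled on all 4 arrays only in TBI cortex at 24 hr.

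In cortex the Ntf3 means of sham and TBI lay above those of naive at 3 mo (0.93 and 0.97 against 0.49), 6 mo (1.33 and 1.58 against 0.57) and 12 mo (1.18 and 1.34 against 0.66), and of these comparisons only TBI at 6 mo passed. At 3 mo and 12 mo both sham and TBI lay on another slide than naive, so slide and group cannot be told apart there. The order of the means did not hold earlier. At 2 wk TBI replicate 1 read −1.49 and the other TBI arrays −0.04 to 0.12, against a naive mean of 0.35. At 24 hr the sham mean (−0.57) was the lowest of the 15 cortical groups. At 6 mo Ntf3 read 1.31, 1.75, 1.38 and 1.87 in TBI, 1.18, 1.25, 1.51 and 1.36 in sham and 0.67, 0.72, 0.21 and 0.67 in naive, so every operated array lay above every naive array. TBI rose over naive by 1.01 (SE 0.16, adjusted p = 0.0297), in a comparison in which 0.273% of probes passed. TBI lay on another slide than naive and sham, so slide and group cannot be told apart for TBI. Sham exceeded naive by 0.76 (SE 0.15, adjusted p = 0.141), and TBI exceeded sham by 0.25 (adjusted p = 0.639), with overlap. The TBI call was kept in 2 of 8 cases with 1 array left out, those without TBI replicate 1 or 2 (adjusted p from 0.0255 to 0.0923). Adjusted p was 0.0523 after scaling on the 75th percentile, 0.0538 with the authors' value table, 0.117 with no filter on dim probes, 0.0774 in a fit of the 2 groups alone and 0.0825 with the replicate number as a block. Choroid plexus markers moved with the same comparison, with 2 of 5 higher in TBI and a median of 4.37. They summed to between 7.866 and 10.51 in TBI, 6.525 and 7.573 in sham and 6.583 and 7.143 in naive, with 5 to 9 of the 9 markers above background in TBI, 3 to 4 in sham and 3 in naive; their part was not tested. At 24 hr cortical Ntf3 read 0.40, −0.11, 0.21 and −0.60 in TBI and −0.38, −0.25, −0.66 and −0.96 in sham, which overlapped, with a difference of 0.54 (SE 0.23, adjusted p = 0.201). Not all of these sham arrays were well above background, so Ntf3 was tested there through the TBI arrays alone. In hippocampus it stayed between 3.34 and 4.47 on all 36 arrays of the larger design, whatever the treatment.

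Vgf separated TBI from sham in hippocampus at 12 mo, before adjustment only. The TBI arrays read 7.56, 7.40, 7.23 and 7.29, all above the sham arrays at 7.21, 6.84, 6.88 and 6.43, while the naive arrays, at 6.82, 7.36, 6.87 and 7.19, overlapped both. The difference from sham was 0.53 (SE 0.17, unadjusted p = 0.00826 by limma, adjusted p = 0.255), and the other Vgf probe gave 0.85 (adjusted p = 0.254) with overlap. In that comparison 0% of probes passed, 0 of 25358, although 3688 (14.5%) had an unadjusted p under 0.05. At 24 hr, too, the 3 TBI arrays (6.53, 7.01 and 6.57) lay above the 2 sham arrays (6.32 and 6.36), with a difference of 0.36 (adjusted p = 0.237). Hippocampal differences at 2 wk, 3 mo and 6 mo were −0.17, 0.05 and −0.22, and cortical ones at 24 hr, 3 mo, 6 mo and 12 mo were 0.17, −0.10, −0.27 and 0.08.

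At 6 mo the naive hippocampus was the low group for Vgf, at 6.92, 5.45, 6.35 and 5.94, against 7.05, 6.58, 6.94 and 6.89 in sham and 6.76, 7.07, 6.27 and 6.48 in TBI. The lowest value came from the naive array that stood apart. The brightest probe did not pass for sham against naive (0.70, adjusted p = 0.145). The other probe rose in sham by 1.34 (SE 0.24, adjusted p = 0.00178) and in TBI by 1.16 (SE 0.24, adjusted p = 0.0088). Both groups lay above all 4 naive arrays, of which replicate 4 (1.22) was not well above background, and overlapped each other. The share of probes that passed was 3.54% for sham and 3.82% for TBI against naive.

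Of the Trk receptor genes, Ntrk2 fell in cortex at 24 hr in both operated groups against naive and did not pass for TBI against sham. Ntrk2 read 8.03, 7.95, 8.09 and 8.01 in naive cortex, 7.22, 7.26, 7.56 and 7.38 in sham and 7.37, 7.38, 7.91 and 7.32 in TBI. Both operated groups lay wholly below the naive group and overlapped each other. Sham fell by 0.67 (SE 0.14, adjusted p = 0.011) and TBI by 0.53 (SE 0.14, adjusted p = 0.0259) against naive, and TBI differed from sham by 0.14 (adjusted p = 0.616). All 4 bright Ntrk2 probes passed in both comparisons, with falls from 0.57 to 0.87 in sham and 0.53 to 0.81 in TBI. Sham and naive shared a slide here. TBI lay on another, so slide and group cannot be told apart for TBI against naive. The median probe itself was 0.20 lower in sham, 19.2% of probes passed in sham and 17.5% in TBI against naive, and scaling on the 75th percentile left a sham difference of −0.49 (adjusted p = 0.0754). The sham call was kept in 8 of 8 cases with 1 array left out, the TBI call in 2 of 8, those without naive replicate 1 or TBI replicate 3 (adjusted p from 0.0027 to 0.0805). Quantile normalization and the authors' value table also ended the sham call (adjusted p = 0.119 and 0.0747), and quantile normalization, normexp and no filter on dim probes ended the TBI call (adjusted p = 0.0829, 0.080 and 0.0522).

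Ntrk3 in the same cortex read 5.85, 5.92, 6.22 and 5.99 in naive, 5.67, 5.52, 5.54 and 5.46 in sham and 5.44, 5.78, 5.92 and 5.14 in TBI. Sham lay wholly below naive, with a difference of −0.44 (adjusted p = 0.0687), and another Ntrk3 probe fell by 0.70 (adjusted p = 0.0292). Of the 46 Trk signaling genes tested, 13 were lower in sham than in naive and 0 higher (median −0.31, against −0.21 over all genes). Over all probes of that comparison, 4356 of 23804 were lower in sham and 226 higher. A count on the lower side is thus not particular to this list. With the percentile scaling used above, far fewer probes passed as lower. Counts of the other lists are not given for this comparison. For TBI against naive, 2880 of 25936 probes were lower and 1653 higher. Of 12 neuronal markers 4 were lower in sham and 3 in TBI. Neuronal markers summed to between 11.45 and 11.58 in naive, 10.91 and 11.63 in sham and 10.97 and 11.61 in TBI. Microglial markers summed to between 9.447 and 9.81, 9.101 and 9.883, and 9.991 and 10.44, with 12 of 12 above background on every array, and 6 of 12 were higher in TBI than in naive. The part of these cells in the receptor differences was not tested.

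**Figure D4:**
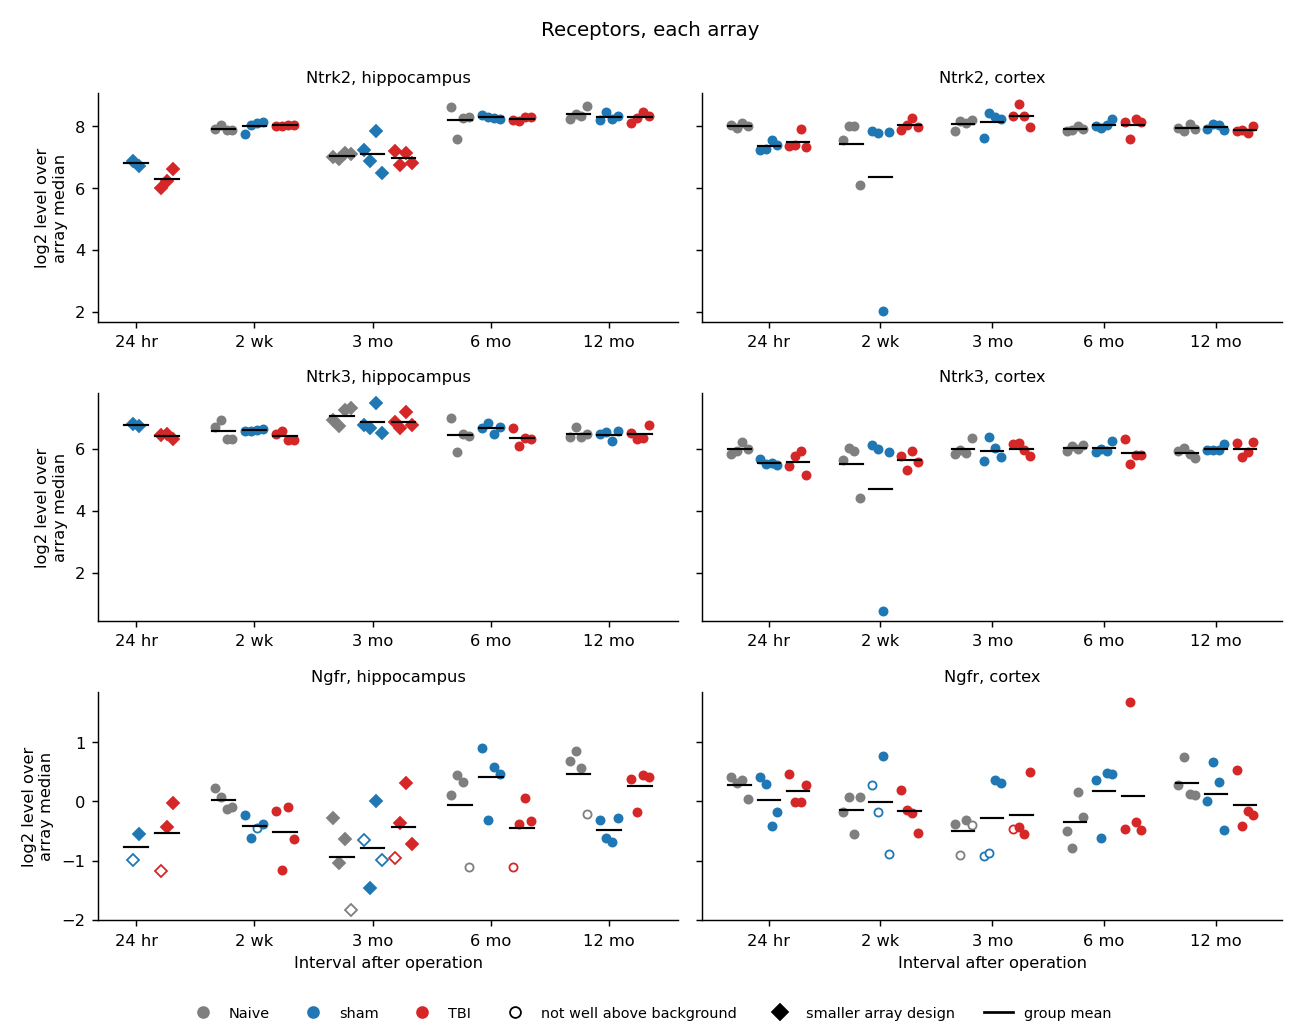
Levels (log2 over the array median) of Ntrk2, Ntrk3 and Ngfr on every array, drawn as for the ligands. In cortex at 24 hr the sham and TBI arrays of Ntrk2 (7.22 to 7.91) lie below the naive arrays (7.95 to 8.09), and the sham arrays at 12 mo are the lowest of that interval for Ngfr in hippocampus.

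In hippocampus at 24 hr, the brightest probes of Ntrk2 and Ntrk3 read lower in TBI than in sham without passing. With 3 TBI and 2 sham arrays, lack of overlap carries little weight. Ntrk2 read 6.01, 6.23 and 6.62 in TBI and 6.88 and 6.72 in sham, with no overlap, a difference of −0.51 (SE 0.21, adjusted p = 0.149). Its other probes gave −0.69 (SE 0.16, adjusted p = 0.0386), which passed in a comparison in which 14% of probes did, and −0.53 (adjusted p = 0.0665). Ntrk3 read 6.46, 6.49 and 6.33 in TBI and 6.80 and 6.74 in sham, with no overlap and a difference of −0.34 (SE 0.14, adjusted p = 0.144), whereas its other probe gave 0.01. The Ntrk2 probe that passed had a TBI effect at 12 mo that was higher by 1.04 than at 24 hr (adjusted p = 0.00142), and another was higher by 0.62 (adjusted p = 0.0307), where 16.5% of probes passed. The brightest Ntrk2 probe of 24 hr and 3 mo was not that of the larger design. Its difference was −0.13 at 3 mo. The brightest probe of the larger design gave 0.02 at 2 wk, −0.04 at 6 mo and −0.01 at 12 mo. Averaged over the latter intervals it gave −0.01, while the probe of 24 hr gave −0.25 there (SE 0.14, adjusted p = 0.665). These values thus do not follow a single probe over time.

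Ngfr, the p75 receptor, was dim in every group, above background on 84 of 96 arrays of the larger design and 11 of 17 of the smaller. In hippocampus at 12 mo it read −0.32, −0.62, −0.69 and −0.28 in sham, 0.38, −0.18, 0.45 and 0.41 in TBI and 0.69, 0.84, 0.57 and −0.22 in naive, the last value not above background. The sham arrays were the lowest and met neither other group. Sham fell by 0.95 against naive (SE 0.22, adjusted p = 0.0402), where 3.11% of probes passed, and TBI exceeded sham by 0.74 (SE 0.22, adjusted p = 0.254). Sham and naive lay on different slides, so slide and group cannot be told apart for the sham call. The sham call was kept in 1 of 8 cases with 1 array left out, that without naive replicate 4 (adjusted p from 0.0054 to 0.126). It was also lost with normexp (adjusted p = 0.115), in a fit of the 2 groups alone (adjusted p = 0.0689) and with the replicate number as a block (adjusted p = 0.076). At 6 mo the order was different, with sham at 0.90, −0.31, 0.58 and 0.47 and TBI at −1.12, −0.38, 0.05 and −0.33, which overlapped, for a difference of −0.85 (SE 0.31, adjusted p = 1.0). Over all 9 sham comparisons with naive, 2 of 51 member tests passed beside 4.67% of all tests, and over the 9 TBI comparisons with naive, 3 of 52 beside 5.12%. The 3 include Gdnf in cortex at 24 hr, which was tested through the TBI arrays alone. A further 4 TBI differences from naive met the thresholds of the methods without passing the adjusted test, all with groups that overlapped. They were −0.89 for Bdnf in cortex at 3 mo (SE 0.36, adjusted p = 0.37), −0.52 for Vgf in cortex at 6 mo (SE 0.18, adjusted p = 0.273), 0.69 for Ntf3 in cortex at 12 mo (SE 0.25, adjusted p = 0.127) and −0.54 for Ngfr in hippocampus at 2 wk (SE 0.20, adjusted p = 0.104). The TBI effects of Bdnf and Vgf in hippocampus differed at 2 wk from those at 24 hr by −0.74 (adjusted p = 0.143) and −0.53 (adjusted p = 0.0805).

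Around the members, several pathway genes differed between TBI and sham in hippocampus at 24 hr. These groups shared neither slide nor scan day, so slide and group cannot be told apart here. Nradd, a p75-related death-domain receptor, rose by 1.17, and the GDNF co-receptor Gfra1 rose by 1.63, with 1 of 2 sham arrays not above background, while Ncam1, an adhesion molecule that also binds GDNF, fell by 1.00. Of the proteins that control proneurotrophin cleavage, the protease Mmp9 rose by 2.06, also with 1 sham array not above background, and plasminogen (Plg) fell by 1.43. Gfra1 and Mmp9 entered the comparison through the TBI arrays alone, and their rises are against sham means that include a reading near background. The dense-core vesicle genes Sst, encoding somatostatin, and Chga, encoding chromogranin A, fell by 1.47 and 1.46.

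Of the activity-regulated genes, the stress-induced transcription factor Atf3 rose by 2.78, Gadd45g by 1.87 and the immediate-early gene Fos by 1.31. The growth factors Hbegf and Fgf2 rose by 2.10 and 1.27, and Fgf1 fell by 1.04. In Trk signaling, the small GTPases Nras and Rap1b rose by 1.05 and 0.98 and the adaptor Shc1 rose by 0.98. The Nogo receptor relatives Rtn4rl1 and Rtn4rl2 fell by 1.84 and 0.99, and Slitrk5 fell by 0.62.

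Over all probes 14% passed, 942 higher and 1328 lower of 16194, and the shares of the lists lay on both sides of that. By list, the numbers higher and lower were 1 and 1 of 12 neurotrophin ligands and receptors, 1 and 1 of 8 GDNF family genes, 3 and 2 of 15 processing genes, 0 and 2 of 21 dense-core proteins and 4 and 2 of 40 Trk signaling genes. They were 2 and 3 of 25 p75 signaling genes, 6 and 3 of 28 activity-regulated genes, 3 and 1 of 19 other growth factors and 0 and 1 of 13 regulators. The median over all genes was 0.00384, and list medians ran from −0.286 for the neurotrophin list to 0.065 for the activity-regulated list. With 2 sham arrays, the count of all probes that passed ranged from 702 to 2285 as single arrays were left out. Marker lists moved too. Microglial markers rose in 2 of 12 genes (median 0.71, sums of 9.389 to 9.464 in sham and 9.694 to 10.35 in TBI), meningeal markers summed to between 6.21 and 6.94 in sham and 7.727 and 7.964 in TBI, and neuronal markers summed to between 10.32 and 10.42 in sham and 10.13 and 10.23 in TBI; their part was not tested.

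**Figure D5:**
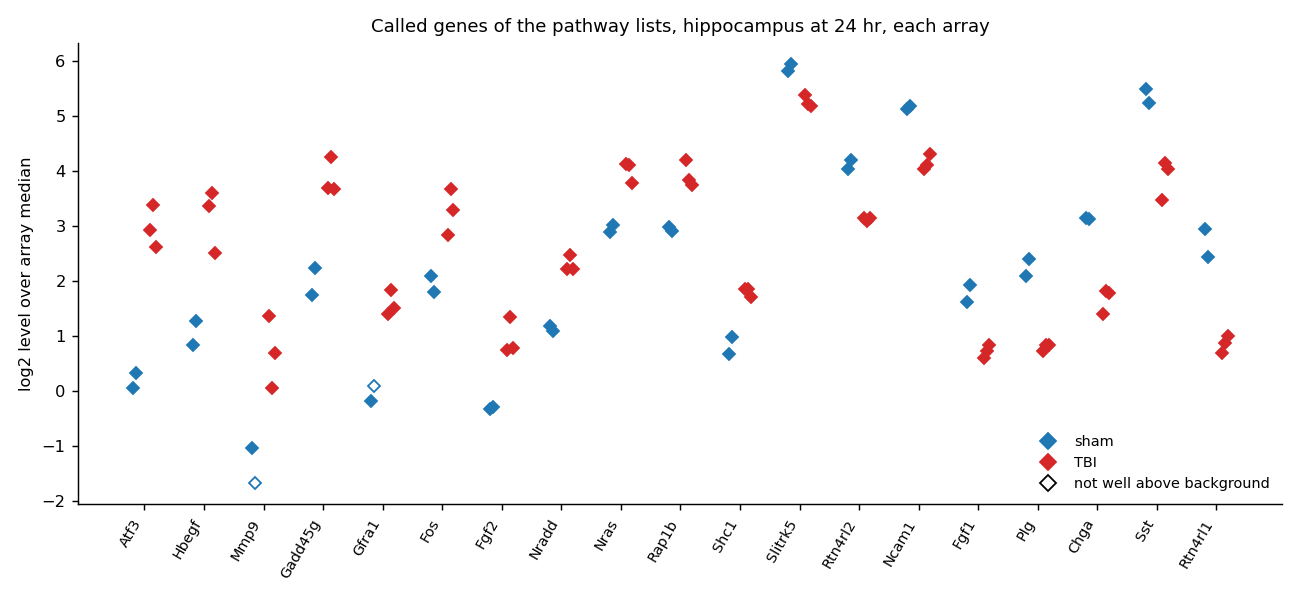
Level (log2 over the array median) on each sham (2) and TBI (3) array of hippocampus at 24 hr for pathway genes chosen by the naming rule, ordered from the largest rise to the largest fall; open markers are not well above background. The rule kept only genes whose TBI arrays lie all above or all below the sham arrays, so that separation is no finding; the genes run from Atf3 at the left to Rtn4rl1 at the right.

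At 2 wk in hippocampus 2.41% of probes passed (604 of 25102), and the median over all genes was −0.11. With single arrays left out, the count that passed ranged from 1, without TBI replicate 3, to 1087, without TBI replicate 2. Nearly all calls at this interval thus depended on TBI replicate 3. With all arrays, the sortilin-family receptors Sort1 and Sorl1 fell by 0.39 and 0.58. The growth factor Tgfb1 rose by 1.30, Atf3 rose by 1.74 with 2 sham arrays not above background, and the phospholipase Plcg2 rose by 0.87 with 1 such array, both tested through the TBI arrays alone. Rtn4rl1 fell by 0.59, as at 24 hr. The kinase Rps6ka2 fell by 0.56, the calcium channel Itpr1 by 0.47, Vegfa by 0.41, Slitrk1 by 0.39 and the vesicle protein Syt4 by 0.37. The counts higher and lower were 0 and 2 of 13 neurotrophin genes, 1 and 2 of 46 Trk signaling genes, 0 and 1 of 25 p75 genes, 1 and 0 of 35 activity-regulated genes, 1 and 1 of 25 other growth factors, 0 and 1 of 22 dense-core proteins and 0 and 1 of 15 regulators, with none in the GDNF and processing lists. Microglial markers were higher in 10 of 12 genes (median 0.97), and their part was not tested. In cortex no gene of the 9 lists passed at any single interval, 24 hr included, where 0.217% of probes did (56 of 25864).

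The genes whose level followed each member most closely were read over the 24 groups of the larger design, after centring group means within each tissue, among 10721 genes. These correlations are descriptions, since the groups share arrays, slides and the arrays that stood apart. Closest to Bdnf were Scg2 (r = 0.932), a dense-core vesicle granin, Ttc19 (0.921) and Epha4 (0.907). Without the 3 cortex groups of 2 wk, Scg2 was at 0.863 and Ylpm1 led at 0.871. Closest to Ntf3 were the potassium channel Kcna5 (0.877), the mineralocorticoid receptor Nr3c2 (0.758) and Rai2 (0.757), and Kcna5 and Nr3c2 led also without those groups (0.863 and 0.836).

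Closest to Vgf were Rangap1 (0.924), Tmem175 (0.911) and Spata2L (0.91). Ntrk2 went with Wdr26 (0.973), Cbs (0.967) and Trim35 (0.966), and Ntrk3 with Mpped1 (0.981), Dpp6 (0.978) and Amer3 (0.974), all values to which the array that stood apart contributed. Without cortex at 2 wk, Wdr26 stood at 0.919, Dpp6 at 0.933 and Mpped1 at 0.919, and Actn2 (0.898) came before Rangap1 (0.859) for Vgf. The dim members had looser neighbours, Slc35f2 (0.613), Agbl5 (0.611) and P2ry2 (0.596) for Ngfr, and Sypl2 (0.623), Sectm1b (0.587) and Fubp3 (0.578) for Gdnf, whose level was above background throughout only 1 group. Without cortex at 2 wk, Ngfr was closest to Vac14 (0.755), Ccdc61 (0.722) and Slc35f2 (0.705) and Gdnf to Pabpc4 (0.754), Mrto4 (0.742) and Fgfrl1 (0.736).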

How the data were processed

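Rat hippocampal and cortical RNA was hybridized by the authors to one-colour Agilent arrays read with Agilent Feature Extraction. The deposited intensity values are background-subtracted processed signals, median spot signals and local background signals. The values tabulated by the authors are a linear ratio, the processed signal over 1 constant per array. Flags for spots well above background, saturated spots and outlier spots were used as deposited.

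Outlier spots (up to 2.85% of an array) and control spots were left out, spots of a probe were averaged, and log2 intensity was centred on each array's median. Probes were named through RefSeq accessions (46.3% of the larger and 61.4% of the smaller design). Groups came from the sample titles. Fits used limma 3.58.1 in R 4.3.3 and version 1.17.8 of data.table, with Benjamini-Hochberg adjustment over all probes of a comparison, and the steps were tested on simulated data. Members and gene lists were chosen with earlier results of these data known. Every member is named. Of the pathway lists, up to 3 genes per list and comparison of TBI with sham were named, those with the lowest adjusted p whose TBI arrays lay all above or all below the sham arrays, with the 3 genes most like each member. Some genes that the lists count are not reported here. A gene was read from its brightest probe.

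Alternatives were scaling on the 75th percentile, quantile normalization, the authors' tabulated ratios, normexp (offset 50, on median signals since mean signals were not used here), no filter on dim probes, fits of only the 2 groups, a replicate block, single arrays left out, and the methods' thresholds. The number of arrays limits the precision. Levels of the 2 designs were not set against each other, and a TBI effect was compared between designs only as a difference within each.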

Additional observations from a re-analysis of the deposited data

Results flagged for a closer look

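In groups of 4 arrays, a single array lay far from the other 3 in 23 of 189 groups of a member's values. Independent normal values would give about 1 in 20 (9.45). The members share arrays and some readings were not above background, so that number is no test of the count. Sham cortex at 2 wk replicate 3, which stood apart over all probes, accounts for 4 of the 23. It read −4.67 for Bdnf (others 1.77 to 2.31), 1.89 for Vgf (7.53 to 7.76), 2.00 for Ntrk2 (7.77 to 7.87) and 0.78 for Ntrk3 (5.91 to 6.11). Naive cortex at 2 wk replicate 4, which stood apart too, read 6.14 for Vgf (7.39 to 7.51).

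Of the ligands on other arrays, Bdnf read 2.61 in naive hippocampus at 2 wk replicate 2 (3.22 to 3.33). Ntf3 read −1.49 in TBI cortex at 2 wk replicate 1 (−0.04 to 0.12; not above background), 0.21 in naive cortex at 6 mo replicate 3 (0.67 to 0.72) and 3.59 in sham hippocampus at 2 wk replicate 1 (4.18 to 4.28). Gdnf was above background at 1.21 in TBI cortex at 3 mo replicate 1 and at 0.64 in naive cortex at 6 mo replicate 4, while the other 3 arrays of each group were not. It was flagged without being above background at −2.78 in TBI cortex at 6 mo replicate 1, −1.85 in sham cortex at 12 mo replicate 2, −1.60 in sham hippocampus at 2 wk replicate 3 and −0.86 in TBI hippocampus at 3 mo replicate 1.

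Of the receptors, Ntrk2 read 7.91 in TBI cortex at 24 hr replicate 3 (7.32 to 7.38) and 7.60 in TBI cortex at 6 mo replicate 2 (8.13 to 8.23), and Ntrk3 read 6.14 in sham cortex at 12 mo replicate 4 (5.95 to 5.98). Ngfr read −0.91 in naive cortex at 3 mo replicate 2, 0.50 in TBI cortex at 3 mo replicate 4, −0.62 in sham cortex at 6 mo replicate 2, 1.67 in TBI cortex at 6 mo replicate 2 (−0.48 to −0.34) and −0.18 in TBI hippocampus at 12 mo replicate 2 (0.38 to 0.45).

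The hippocampal TBI effect differed from that of 24 hr, by a test of the difference, at 12 mo for 2 probes of Ntrk2 that were not the brightest (0.62 and 1.04).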

How the results depend on the processing

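Of the single member values that passed the adjusted test or the methods' thresholds, none changed sign under any alternative run; 567 settings kept the side of the threshold, 48 lost it and 18 gained it. Beyond these, the cortical TBI differences of Bdnf, Vgf and Ntrk3 at 2 wk changed sign without the arrays that stood apart, as given above. The alternatives for TBI against naive and the runs without those arrays were chosen after seeing the data. The count of members that passed moved as follows. TBI against sham went from 0 of 57 to 1 with normexp, 1 with no filter on dim probes (Gdnf in cortex at 24 hr, adjusted p = 0.0418) and 6 at the methods' thresholds. Sham against naive went from 2 to 4 with normexp and 4 at the methods' thresholds, and ranged from 1 to 3 with single arrays left out, with 1 without naive hippocampus at 12 mo replicate 1, 2 or 3 or any sham array of that interval. TBI against naive went from 3 to 1 with normexp, 1 with no filter and 7 at the methods' thresholds, and ranged from 1 to 4 with single arrays left out, with 1 without naive cortex at 24 hr replicate 2 or 3 or TBI replicate 1. The average sham effect went from 0 to 1 with normexp, the difference of the TBI effect between tissues from 0 to 1 at the methods' thresholds, and its difference from 24 hr from 0 to 4 there, and to between 0 and 1 with single arrays left out (1 without TBI hippocampus at 24 hr replicate 3). The naive tissue comparison, 11 of 24 tests over the average and 3 intervals, went to 18 on the 75th percentile, 19 with quantile normalization and 18 with the authors' value table, and ranged from 10 to 13 with single arrays left out. The causes were not tested.

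Same-numbered sham and TBI arrays had correlations of −0.419 to 0.303 in their deviations, over 0.1 in 12 of 38 pairs, and cortex at 12 mo was the only comparison with all 4 pairs over 0.1, so the numbers were not taken to pair sham with TBI in general. Same-numbered hippocampus and cortex arrays were over 0.1 in 27 of 53 pairs (−0.385 to 0.475), in all 4 naive pairs at 2 wk and at 12 mo and in none at 6 mo. With the replicate number as a block, the members that passed were 0 for TBI against sham, 2 for sham against naive, 2 for TBI against naive and the same 11 for the naive tissues. Ngfr in hippocampus at 12 mo (sham against naive, adjusted p = 0.076) and Ntf3 in cortex at 6 mo (TBI against naive, adjusted p = 0.0825) no longer passed.

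Scaling changed the counts over all probes too. In cortex at 24 hr, 226 probes were higher and 4356 lower in sham than in naive, against 162 and 252 on the 75th percentile. Of the naive tissues, 5046 were higher and 2583 lower in hippocampus, against 7276 and 6425. TBI against sham in cortex at 24 hr gave 56, 1 on the 75th percentile and 4355 with normexp. A fit with the slide as a block was not run, since each group lay on 1 slide. Gdnf, Ngfr and cortical Ntf3 lay near background, which limits what their levels can show.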
